A study of Mus musculus with 13 samples.

Results

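The 34 genes described here encode the carriers with which the proximal tubule of the kidney takes sugars, phosphate, sulphate, organic acids, amino acids, peptides, carnitine and vitamins back from the filtrate, together with the water channel Aqp1 and the scaffold protein Pdzk1. They were chosen by gene symbol, as a list of known proximal tubule carriers, from the 28183 genes of the kidney table, and each of the 34 had a row in it. Kidneys came from 2 mouse models of polycystic kidney disease on the C57BL/6 strain, with 2 libraries in each of 4 groups. In the Pkd1 model, kidneys were taken at postnatal day 10 from KSP/Cre+;Pkd1f/f mice (the knockouts) and KSP/Cre-;Pkd1f/f controls that carry the same floxed gene without Cre. In the Pkd2 model, they were taken at postnatal day 20 from Pkhd1/Cre+;Pkd2f/f knockouts and Pkhd1/Cre-;Pkd2f/f controls. KSP/Cre is driven by the promoter of kidney-specific cadherin, which is active in tubule epithelium with the strongest activity in distal segments and collecting ducts, and Pkhd1/Cre acts mainly in collecting ducts, so neither transgene is aimed at the proximal tubule alone. The Pkd2 knockouts are titled "(WT)" although Cre is part of the genotype in their labels, and the genotype was followed. A second table holds mIMCD-3 cells, a mouse line from the inner medullary collecting duct, treated with a gapmer (an antisense oligonucleotide that directs cleavage of its target) against the long noncoding RNA Hoxb3os or with a control gapmer.

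Many of these carriers sit in the brush border, the folded membrane that faces the filtrate, and use the sodium gradient kept up by the basolateral sodium pump to draw their substrate into the cell. Basolateral carriers then release the substrate to the blood. Different stretches of the tubule use different family members: the early part holds high-capacity carriers such as Slc5a2 (SGLT2) and the late part holds high-affinity carriers such as Slc5a1 (SGLT1). Many of the genes are switched on after birth as the tubule matures, and the transcription factor Hnf4a is a known regulator of several of them.

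Kidney values as the authors deposited them are CPM over a library's own scaling factor, and are called scaled CPM here. Recovered reads ranged from 30658346 to 94429151 per library, and 1 read was worth 0.00820 to 0.0280 of that unit. Mitochondrially encoded genes took 22.05% to 41.4% of the values and small structural RNAs 6.42% to 29.2%. The labels do not say whether libraries of a group came from separate animals, so p-values measure only the spread between these libraries. That spread may be technical in groups whose 2 libraries read as the same sex by the sex-linked genes given below. The floxed genes kept gene-wide values in their knockouts: Pkd1 stood at 31.1 and 22.7 scaled CPM in its controls and 24.1 and 26 in its knockouts, and Pkd2 at 69 and 61.2 in its controls and 50.7 and 53.3 in its knockouts. Cre removes only some exons and acts only in some cells, so these gene-wide values do not check the labels. Along the first principal component of all tested genes (51.8% of the variance), the Pkd2 knockouts lay far apart, at -0.76 and 33.4, while the Pkd1 knockouts lay at 46.5 and 46.3. Xist exceeded the summed Y-linked genes in Pkd1 control replicate 2, both Pkd2 controls and Pkd2 knockout replicate 2, and the reverse held in the other 4 libraries, so sex is not balanced between groups. The 2 Pkd1 controls read as opposite sexes, as did the 2 Pkd2 knockouts, so neither pair came from 1 same animal. In the Pkd1 model the read was not clean. Xist stood at 25.3 and 27.7 in its knockouts, beside 0.221 in control replicate 1. The Y-linked sum was 10.4 in control replicate 2. The sex covariate used below rests on this read.

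Promoter windows of 300 bases (250 before to 50 after the start) were held by RefSeq's GRCm38.p6 table for 27 of the 34 genes. Slc7a12, Slc5a12, Slc5a2, Slc23a1, Slc13a1, Slc7a13 and Slc6a18 had no window there. The windows were searched on both strands for a core of the HNF4 site, CAAAGTCCA. Stretches of 100 bases from before the start are shown for 3 carriers with a match there, chosen to cover 3 of the patterns described below, namely a carrier that fell in both models (Slc13a3), in Pkd1 knockouts alone by the call (Slc7a7) and in neither (Slc3a1). Capitals mark the matched core, with 1 mismatch and on the opposite strand in the first pair and without mismatch in Slc3a1. Sequences run 5′ to 3′ on the strand of the gene. They lie at chr2:165473321-165473420 (minus strand), chr14:54409547-54409646 (minus) and chr17:85028247-85028346 (plus).
Slc13a3: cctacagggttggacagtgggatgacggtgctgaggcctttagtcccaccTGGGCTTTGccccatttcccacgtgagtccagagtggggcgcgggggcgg
Slc7a7: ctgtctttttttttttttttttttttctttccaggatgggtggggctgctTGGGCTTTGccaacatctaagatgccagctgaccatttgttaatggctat
Slc3a1: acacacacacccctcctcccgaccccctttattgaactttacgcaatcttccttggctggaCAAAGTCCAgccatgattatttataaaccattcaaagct
With at most 1 mismatch, the HNF4 core lay in the window of 9 of 27 carriers (33.3%), against 9.64% of the 27025 genes in the table. Without mismatch, it was found in Slc3a1 and Pdzk1 (7.41% against 0.555%). These matches describe letters in the windows and were not tested.

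Kidneys with either knockout held less carrier RNA than their controls. The 34 genes summed to 3083 and 3190 scaled CPM in the day 10 controls and to 994 and 1602 in the Pkd1 knockouts, 41.4% of the control mean. At day 20 the sum was 5524 and 5899 in controls and 3600 and 2241 in the Pkd2 knockouts, 51.1% of the control mean. In bulk kidney, fewer proximal tubule cells and less RNA per cell cannot be told apart. All 34 passed the filter on low values (at least 1 in at least 2 libraries), along with 14637 genes in all, and were tested with limma on log2(value + 1), a scale that understates the change of low genes. Called means a Benjamini-Hochberg adjusted p below 0.05 over all tested genes.

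In Pkd1 knockouts, 18 of the 34 carriers fell, none rose and 16 were not called. Among all tested genes, 5.48% were called lower and 5.11% higher in that contrast. The median log2 fold change was -1.30 over the carriers and -0.0021 over all tested genes. In Pkd2 knockouts, 16 carriers fell, 1 (Slc13a1) rose and 17 were not called, against 8.13% of all genes called lower and 9.54% called higher, and the medians were -1.01 over the carriers and -0.0082 over all genes. The 2 knockout libraries lay below both controls for 30 carriers in the Pkd1 model and 32 in the Pkd2 model, which 29.2% and 30.9% of all genes also did, and above both for Slc13a1 in the Pkd2 model (31.9% of all genes). In the authors' deposited table, whose test differs, 23 carriers had an adjusted p below 0.05 in Pkd1, all lower in knockouts (4.35% of all its genes, and 3.59% were higher), and 16 in Pkd2, with 15 lower (4.58%) and 1 higher (5.68%). With mitochondrially encoded genes left out of the scaling, which left 15442 genes tested and put the median log2 fold change of all genes at -0.198 in Pkd1 and -0.19 in Pkd2, 23 carriers fell in Pkd1 (9.34% of all genes lower, 3.35% higher) and 20 fell and 1 rose in Pkd2 (12.9% lower, 7.16% higher). Counts leaned on single libraries, and the share of all tested genes called fell too in each of the settings given next. The Pkd1 count of 18 became 5 without Pkd1 control replicate 1, 6 without control replicate 2 and 7 without knockout replicate 1, and the Pkd2 count of 17 became 9, 4 and 9 without Pkd2 control replicate 1, control replicate 2 and knockout replicate 2. Slc5a2, Slc34a1, Slc7a8, Slc16a4 and Slc26a1 were called in Pkd1, and Slc16a4, Slc9a3 and Slc22a4 in Pkd2, whichever of the 8 libraries was left out. Each of the other 13 and 14 calls ended without at least 1 control of its own model, and the highest adjusted p reached was 0.0519 to 0.21 in Pkd1 and 0.0511 to 0.223 in Pkd2.

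**Figure D1:**
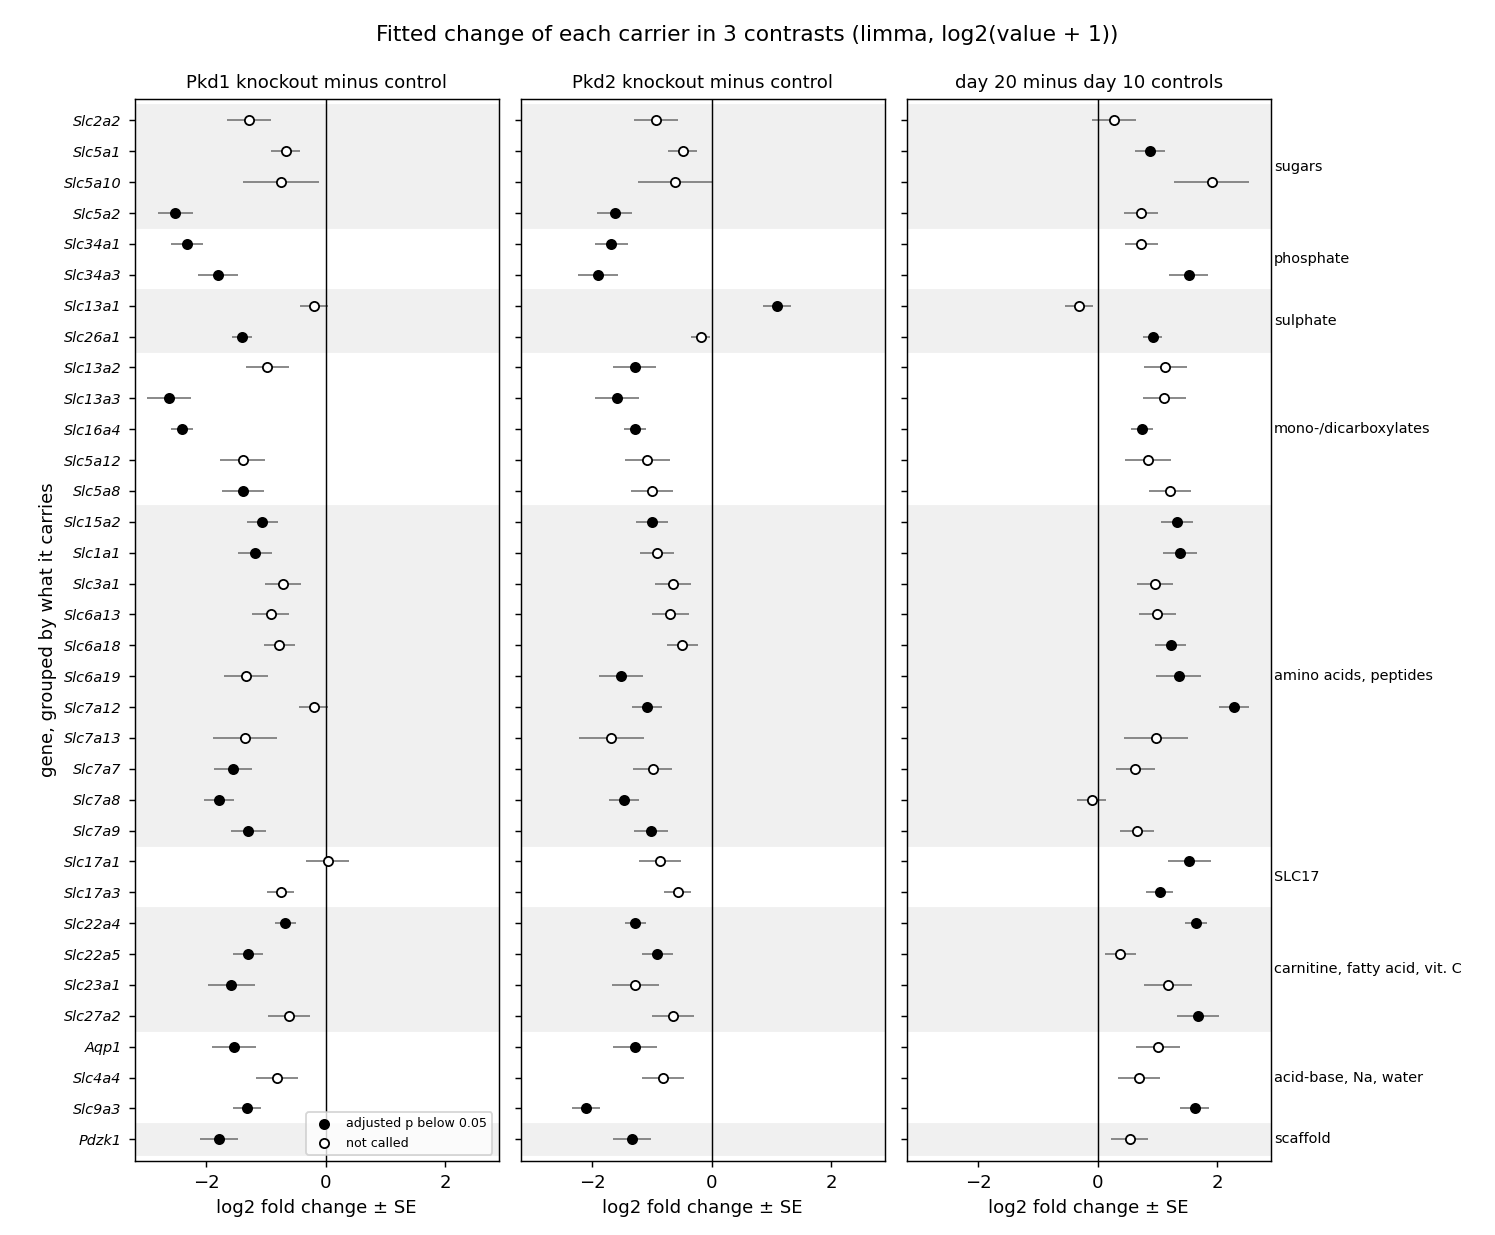
Log2 fold change of each of the 34 carriers (x axis, limma on log2(value + 1), bars are 1 SE) in Pkd1 knockouts, Pkd2 knockouts and day 20 against day 10 controls, with genes on the y axis grouped by substrate. Filled points are called, and they number 18, 17 and 14 from left to right, with Slc13a1 the only filled point right of 0 among the knockouts.

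The phosphate carriers fell in both models. Slc34a1 (NaPi-IIa, chr13:55399648-55414695 in mm10), which carries most of the phosphate taken back in rodents, stood at 424.7 and 394.6 scaled CPM in day 10 controls, 76.0 and 86.6 in Pkd1 knockouts, 663.4 and 698.8 in day 20 controls and 283.9 and 157.3 in Pkd2 knockouts. Every knockout library lay far below both of its controls, and even the Pkd2 knockouts were below the younger controls. Its log2 fold change was -2.32 ± 0.28 (SE, adjusted p = 0.00252) in Pkd1 and -1.68 ± 0.28 (adjusted p = 0.00534) in Pkd2, and the latter became 0.052 without Pkd2 control replicate 2. Slc34a3 (NaPi-IIc) was far lower, with 6.55 and 7.13 in day 10 controls and 1.49 and 1.02 in Pkd1 knockouts. In the Pkd2 model it stood at 21.9 and 21.1 in controls and 8.07 and 2.98 in knockouts. It fell by 1.81 ± 0.33 on the log2 scale in Pkd1 (adjusted p = 0.0121) and by 1.91 ± 0.33 in Pkd2 (adjusted p = 0.00676). Those calls ended, with adjusted p from 0.0511 to 0.0851, without either Pkd1 control or Pkd1 knockout replicate 2 in the former and without Pkd2 control replicate 2 in the latter. Per kilobase of exon, the day 20 control mean was 146 for Slc34a1 and 9.13 for Slc34a3.

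Of the 4 sugar carriers, the glucose carrier of the early segment alone was called in the knockouts. Slc5a2 (SGLT2, chr7:128265657-128272430), which takes back most filtered glucose, had 131.5 and 110.5 in day 10 controls, 23.2 and 17.6 in Pkd1 knockouts, 184.4 and 217.5 in day 20 controls and 88.7 and 46.6 in Pkd2 knockouts. It fell to 16.9% of the control mean in Pkd1 (log2 fold change -2.52 ± 0.29, adjusted p = 0.00235) and to 33.7% in Pkd2 (-1.62 ± 0.29, adjusted p = 0.00781, and 0.0705 without Pkd2 control replicate 2). Slc5a1 (SGLT1), the glucose carrier of the late segment, stood at 12.01 and 13.4, then 5.89 and 9.78 in Pkd1 knockouts, and at 22.6 and 25.8, then 20.0 and 14.4 in Pkd2 knockouts. Its groups did not overlap in either model, yet its log2 fold changes of -0.67 ± 0.25 (adjusted p = 0.12) and -0.48 ± 0.25 (adjusted p = 0.207) were not called. The basolateral glucose carrier Slc2a2 (GLUT2) stood at 65.7 and 91.1 against 25.6 and 38.1 in Pkd1 and at 104.03 and 84.97 against 73.9 and 32.3 in Pkd2, likewise separate and not called (40.6% and 56.2% of control, adjusted p = 0.0592 and 0.115). Slc5a10 (SGLT5), a carrier of mannose and fructose, varied most between the Pkd1 knockouts, with 5.77 and 29.8 in the Pkd1 knockouts around 23.4 and 23.0 in their controls and 93.6 and 36.9 in the Pkd2 knockouts against 101.1 and 80.3, and its groups overlapped in both models. A gene on the other strand, BC017158, overlaps Slc5a2 over 1052 bases with a mean value of 13.3, and the sources used here do not say whether counting used the strand.

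Of the 2 sulphate carriers, Slc26a1 fell in Pkd1 and Slc13a1 rose in Pkd2, and neither was called in the other model. Slc13a1 (NaS1, chr6:24088283-24168092), the sodium-sulphate carrier of the brush border, stood at 65.5 and 79.3 in day 10 controls and 65.7 and 60.5 in Pkd1 knockouts, so those groups overlapped. In the Pkd2 model it stood at 53.02 and 63.3 in controls and 156.5 and 99.96 in knockouts, and both knockouts were above all other 6 libraries. It rose by 1.10 ± 0.23 on the log2 scale (adjusted p = 0.0151), to 220% of the control mean, the only carrier called higher in a knockout. Without Pkd2 control replicate 1 or 2 the adjusted p was 0.114 and 0.0705, and without mitochondrial genes and small structural RNAs in the scaling the log2 fold change was 0.69 (adjusted p = 0.312). Slc26a1 (Sat1, chr5:108669878-108675569), the basolateral exchanger that passes sulphate on to the blood, had 36.5 and 33.7 in day 10 controls, 13.9 and 11.6 in Pkd1 knockouts, 70.1 and 64.6 in day 20 controls and 56.0 and 62.4 in Pkd2 knockouts. It fell in Pkd1 (-1.40 ± 0.16, adjusted p = 0.00237) and was not called in Pkd2 (-0.18 ± 0.16, adjusted p = 0.47), where its knockouts lay just below the controls. The gene Idua runs on the other strand over 5692 bases of Slc26a1, at a mean value of 6.15.

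**Figure D2:**
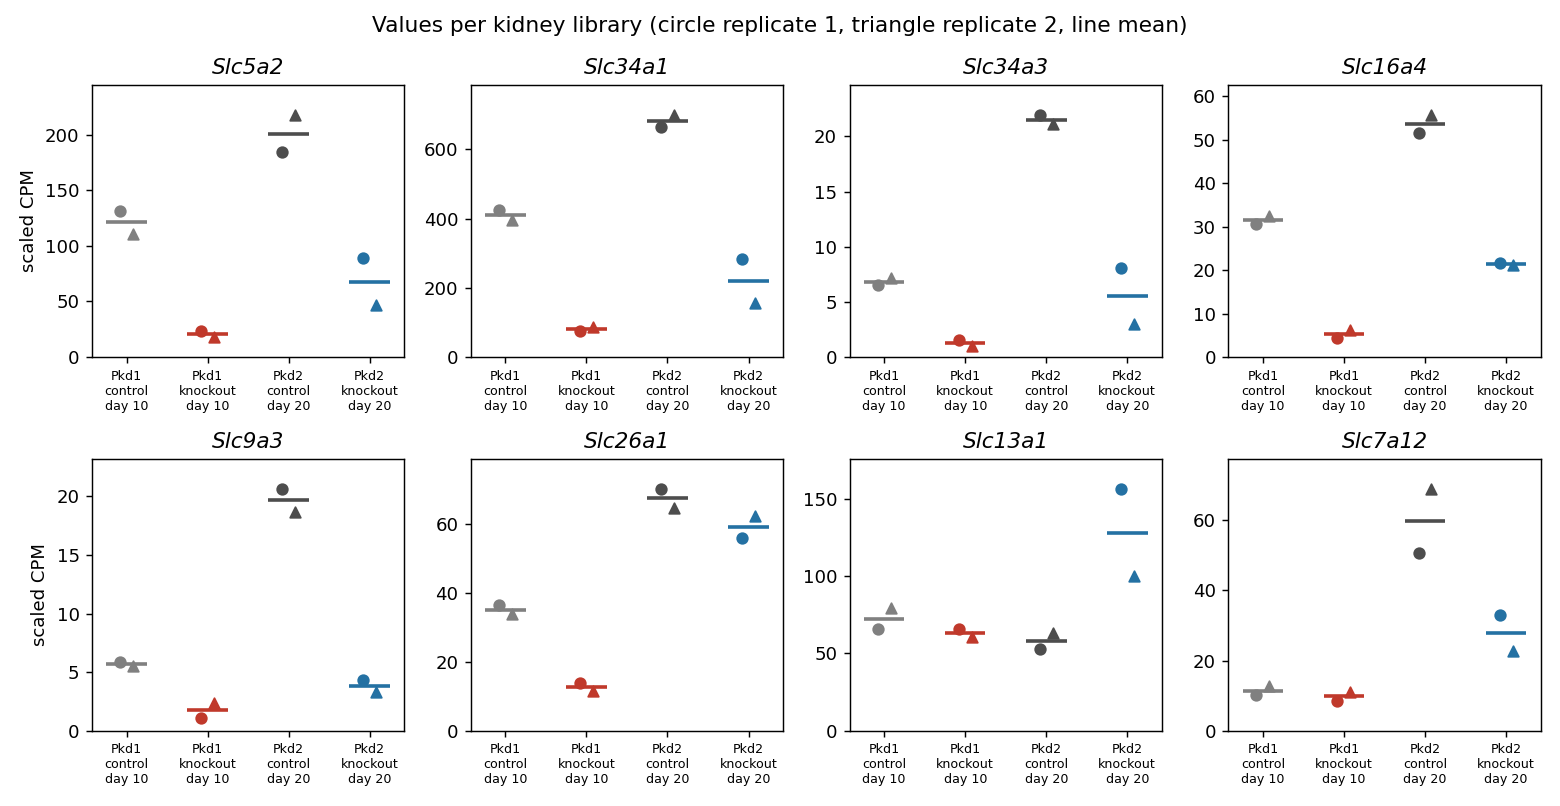
Scaled CPM (y axis, from 0) of 8 carriers in each kidney library, by group (x axis), with replicates 1 and 2 as circles and triangles and the group mean as a line. Slc5a2, Slc34a1, Slc34a3, Slc16a4 and Slc9a3 are lower in the knockouts of both models, Slc26a1 is at 36.3% of control in Pkd1 and 87.9% in Pkd2, and Slc13a1 is at 220% of control in Pkd2.

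Of the 5 carriers of lactate, citrate and other organic acids, 3 fell in each model and none rose. Slc13a3 (NaDC3), a basolateral carrier that takes up dicarboxylates, stood at 73.4 and 54.2 in day 10 controls, 7.33 and 11.9 in Pkd1 knockouts, 100.3 and 190.6 in day 20 controls and 59.7 and 34.9 in Pkd2 knockouts. At -2.63 ± 0.37 it had the most negative log2 fold change of the 34 in Pkd1 (adjusted p = 0.00453, and 0.0519 without Pkd1 control replicate 1). In Pkd2 it fell by 1.58 ± 0.37 (adjusted p = 0.021), a call that ended without Pkd2 control replicate 2 (0.162) or knockout replicate 2 (0.127). Slc16a4 (MCT5), a member of the monocarboxylate carrier family, had the smallest adjusted p of the carriers in Pkd1, with 30.6 and 32.4 in day 10 controls against 4.31 and 6.14 in knockouts (-2.40 ± 0.18, adjusted p = 0.000476). In the Pkd2 model it stood at 51.5 and 55.7 against 21.5 and 21.3 (-1.28 ± 0.18, adjusted p = 0.00297), the tightest pair of Pkd2 knockout values among the genes named here. Slc5a8 (SMCT1), a sodium-lactate carrier, fell in Pkd1 (-1.38 ± 0.35, adjusted p = 0.0406, and 0.0684 to 0.179 without any 1 of the 4 controls or Pkd1 knockout replicate 1) and was not called in Pkd2 (-0.996 ± 0.35, adjusted p = 0.0846). Its relative Slc5a12 (SMCT2) stood at 38.7% and 51.8% of control and missed the threshold in both (adjusted p = 0.0516 and 0.0853). Slc13a2 (NaDC1), the apical citrate carrier, was the lowest of the 34 per kilobase in every group. It stood at 1.73 and 1.62 against 0.174 and 0.571 in Pkd1 (not called, adjusted p = 0.121) and at 2.81 and 8.03 against 1.74 and 1.11 in Pkd2 (-1.29 ± 0.36, adjusted p = 0.0406), where its controls differed more than those of any other carrier.

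Of the 11 amino acid and peptide carriers, 5 fell in each model. Slc7a8 (LAT2), a basolateral exchanger of neutral amino acids, fell in both, from 65.9 and 68.2 to 19.6 and 17.9 in Pkd1 (-1.79 ± 0.25, adjusted p = 0.00447) and from 68.1 and 57.3 to 29.2 and 16.4 in Pkd2 (-1.47 ± 0.25, adjusted p = 0.00585, and 0.0547 without Pkd2 control replicate 1). Slc7a9, the light chain of the apical cystine carrier, and Slc15a2 (PEPT2), the high-affinity peptide carrier, also fell in both models, with log2 fold changes from -1.30 to -0.998. Slc15a2 stood at 27.1 and 32.3 in day 10 controls, 11.3 and 16.6 in Pkd1 knockouts, 69.9 and 82.4 in day 20 controls and 48.1 and 29.2 in Pkd2 knockouts, with no overlap in either model. Each of those 4 calls ended without either control of the same model (adjusted p from 0.107 to 0.208), among other libraries. Slc3a1, the heavy chain that pairs with Slc7a9 and whose mutation causes cystinuria as Slc7a9's does, was not called in either, at 65.2% and 63.6% of control. Slc7a7, the basolateral light chain for dibasic amino acids, and Slc1a1, the glutamate and aspartate carrier, were called in Pkd1 (-1.55 ± 0.32 and -1.19 ± 0.28) and not in Pkd2 (-0.99 ± 0.32 and -0.91 ± 0.28). Slc6a19 (B0AT1), the main apical carrier of neutral amino acids in the early segment, was at 38.7% of control in both models, called in Pkd2 (-1.52 ± 0.37, adjusted p = 0.0256) and not in Pkd1 (-1.33 ± 0.37, adjusted p = 0.0554). Slc6a18 and Slc6a13, carriers of neutral amino acids and of GABA and taurine, were not called, at 51.5% to 71.8% of control.

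Of the related amino acid carriers Slc7a12 and Slc7a13, neither was called in Pkd1 and Slc7a12 fell in Pkd2. Slc7a12 stood at 10.1 and 12.6 in day 10 controls and 8.51 and 11.1 in Pkd1 knockouts, so the groups overlapped (-0.20 ± 0.24, adjusted p = 0.643). At day 20 it stood at 50.6 and 68.9 in controls and 33.1 and 22.6 in Pkd2 knockouts, below both controls (-1.08 ± 0.24, adjusted p = 0.0188). That call ended without Pkd2 control replicate 2 (0.159) or knockout replicate 2 (0.105), and with sex as a covariate it was -1.14 ± 0.29 (adjusted p = 0.0336). Slc7a13 (AGT1), the late-segment carrier of aspartate and glutamate, had 10.8 and 9.38 against 2.66 and 4.15 in Pkd1 and 26.9 and 15.9 against 12.4 and 2.43 in Pkd2. Its groups did not overlap, but the scatter was wide and neither change was called (adjusted p = 0.147 and 0.0635).

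Carriers of carnitine and vitamin C fell in part. Slc22a4 (OCTN1), which carries ergothioneine, was among the 3 lowest carriers per kilobase, with 1.90 and 1.86 in day 10 controls, 0.712 and 0.91 in Pkd1 knockouts, 7.12 and 9.02 in day 20 controls and 2.89 and 2.54 in Pkd2 knockouts. It was called in Pkd2 (-1.28 ± 0.18, adjusted p = 0.00282) and, near the threshold, in Pkd1 (-0.67 ± 0.18, adjusted p = 0.0452, and 0.0691 to 0.207 without any 1 of the 4 controls or either Pkd1 knockout). The carnitine carrier Slc22a5 (OCTN2) fell in both, to 39.0% and 54.7% of control (adjusted p = 0.0163 and 0.0412). Both Slc22a5 calls ended without either control of the same model, among other libraries. Slc23a1 (SVCT1), the ascorbate carrier, was called in Pkd1 (-1.58 ± 0.40, adjusted p = 0.039) and not in Pkd2 (-1.28 ± 0.40, adjusted p = 0.0569). Paip2 overlaps it on the other strand over 2583 bases, at a mean value of 71.8. Slc27a2, which takes up and activates long fatty acids, was not called in either, and its Pkd1 knockouts stood at 60.3 and 133.4 against 141.2 and 134.3 in controls, and its Pkd2 knockouts at 341.4 and 235.4 against 418.6 and 471.6. Nor were the urate and organic anion carriers Slc17a1 and Slc17a3. Slc17a1 stood at 26.4 and 57.7 in Pkd1 knockouts around 39.9 and 36.6 in controls, with overlapping groups, and at 79.9 and 47.0 against 121.4 and 104.9 in the Pkd2 model, with none.

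Slc9a3 (NHE3), the sodium-proton exchanger through which the proximal tubule takes up sodium and secretes acid, had the smallest adjusted p of the carriers in Pkd2. It stood at 20.6 and 18.7 in day 20 controls against 4.35 and 3.33 in Pkd2 knockouts, 19.5% of control (-2.10 ± 0.24, adjusted p = 0.00127). At day 10 it stood at 5.88 and 5.49 against 1.11 and 2.39 (-1.32 ± 0.24, adjusted p = 0.0113), a call that ended without either Pkd1 control or Pkd1 knockout replicate 1 (0.0601 to 0.0915). Aqp1, the water channel, fell in both models (-1.53 ± 0.37, adjusted p = 0.0336, and -1.29 ± 0.37, adjusted p = 0.043), and both calls ended without any 1 of the 4 controls (0.0599 to 0.178). Slc4a4 (NBCe1), the basolateral bicarbonate exit, was not called, at 61.0% and 57.2% of control. Pdzk1, which tethers Slc34a1 and other carriers in the brush border, was the highest of the 34 per kilobase in each group, with 624.1 and 579.9 falling to 135.0 and 222.9 in Pkd1 (-1.79 ± 0.31, adjusted p = 0.01) and 816.2 and 934.4 falling to 440.3 and 272.1 in Pkd2 (-1.33 ± 0.31, adjusted p = 0.022). Without either own control, and without Pkd1 knockout replicate 1 or Pkd2 knockout replicate 2, its adjusted p ran from 0.0674 to 0.153.

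The replicates of a knockout differed along the whole list. Pkd1 knockout replicate 1 was below replicate 2 for 27 of 34 carriers, with a median ratio of 1.51 between the larger and the smaller value. Pkd2 knockout replicate 1 was above replicate 2 for 33 of 34, with a median ratio of 1.71, while controls had median ratios of 1.111 and 1.122. Against their own control mean, the carriers' median log2 difference was -1.40 and -0.99 in Pkd1 knockouts 1 and 2 and -0.64 and -1.35 in Pkd2 knockouts 1 and 2. The largest gap in Pkd2 was in Slc7a13, 5.13-fold, and in Pkd1 in Slc5a10, 5.17-fold.

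**Figure D3:**
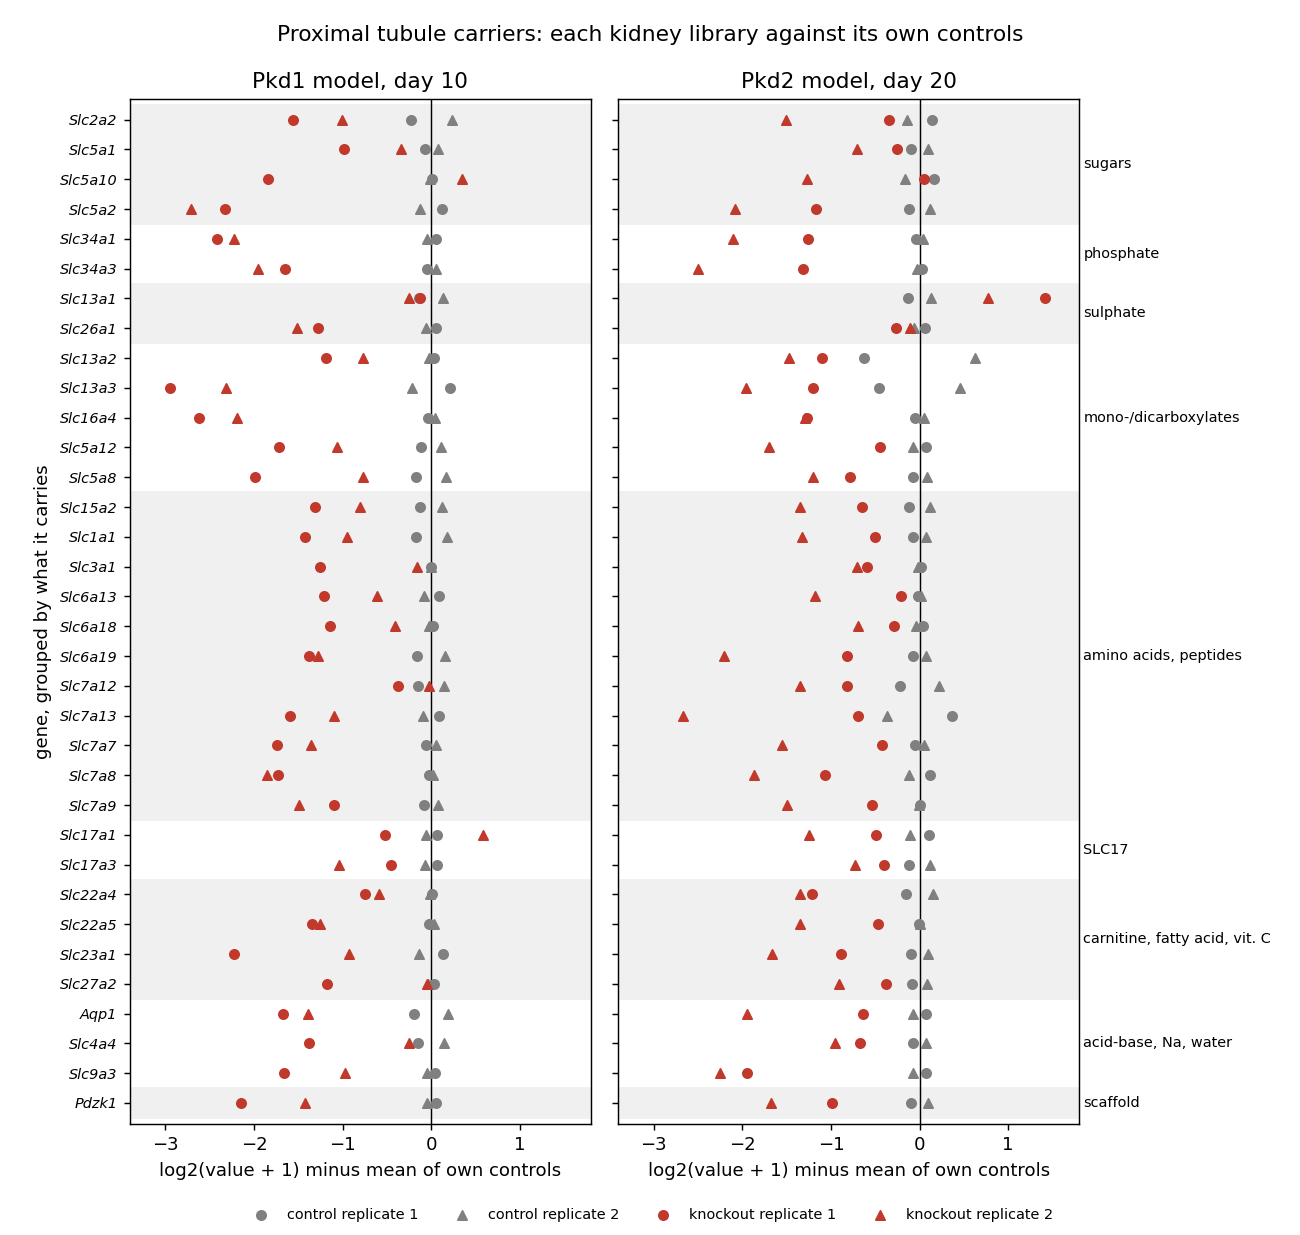
Each kidney library's log2(value + 1) minus the mean of its own controls (x axis) for the 34 carriers (y axis, grouped by substrate), Pkd1 model left and Pkd2 model right, controls grey and knockouts red, replicate 1 circles and replicate 2 triangles. Nearly all red points lie left of 0, and in Pkd2 the triangle lies left of the circle for 33 of 34 carriers.

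Many falls were shared between the models. Slc5a2, Slc34a1, Slc34a3, Slc13a3, Slc7a8, Slc7a9, Slc16a4, Slc9a3, Slc15a2, Slc22a4, Slc22a5, Aqp1 and Pdzk1 were called lower in both models, 13 carriers that make up 72.2% of the 18 Pkd1 falls and 81.2% of the 16 Pkd2 falls, where 3.04% of all genes were called lower in both. The Pkd1 and Pkd2 contrasts have no library in common, but both come from 1 model with a shared estimate of the spread, so their calls are not independent. With only the libraries of the contrast, 23 carriers were called lower in Pkd1 (6.6% of all genes) and 9 in Pkd2 (3.67%). Slc5a8, Slc7a7, Slc1a1, Slc26a1 and Slc23a1 were called lower in Pkd1 only, Slc13a2, Slc6a19 and Slc7a12 in Pkd2 only, 12 carriers were called in neither, and Slc13a1 rose in Pkd2. The test of the difference between the models' effects called none of the 34 (1 of 14637 genes, 0.00683%). Before adjustment, 6 carriers had p below 0.05 for the difference: Slc13a1, Slc7a12, Slc16a4, Slc9a3, Slc26a1 and Slc22a4. That threshold was passed by 8.25% of all genes. With DESeq2 on recovered reads, which called 1.26% of all genes, Slc13a1 (-1.34, adjusted p = 0.0243), Slc16a4 (-1.28, adjusted p = 0.0229) and Slc26a1 (-1.28, adjusted p = 0.0068) were called, each with a more negative effect in Pkd1, and with edgeR none was. Age, floxed gene and Cre differ between the models together and cannot be told apart.

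By segment, both early and late members stood below control in each model, and no late member was called in Pkd2. The 8 early members (Slc5a2, Slc2a2, Slc5a12, Slc6a19, Slc34a1, Slc34a3, Slc4a4 and Slc7a9) had median log2 fold changes of -1.36 in Pkd1 and -1.30 in Pkd2, with 4 and 5 called lower. The 6 late members (Slc5a1, Slc5a8, Slc6a18, Slc7a13, Slc1a1 and Slc3a1) had medians of -0.98 and -0.78, with 2 and none called. Of all tested genes, 5.48% were called lower in Pkd1 and 8.13% in Pkd2. In Pkd2 the late members' adjusted p ran from 0.0572 (Slc1a1) to 0.227 (Slc6a18), and Slc7a13 had a log2 fold change of -1.68 (0.0635). The early Slc2a2, Slc5a12 and Slc4a4 were not called there either. Both knockouts lay below both controls for all 8 early and all 6 late members in each model, as for 29.2% (Pkd1) and 30.9% (Pkd2) of all genes. The segments were not tested against each other.

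Between the control groups, the carriers were higher at day 20 than at day 10. Of the 34, 14 were called higher at day 20, none lower and 20 were not called, against 5.04% of all genes called higher and 7.26% lower. The median log2 difference was 1.01, against -0.0014 over all genes. Both day 20 controls lay above both day 10 controls for 31 carriers, as for 31.1% of all genes. With mitochondrially encoded genes left out of the scaling, which put the median log2 fold change of all genes at 0.16, 17 rose (7.23% of all genes higher, 5.33% lower). Age and the floxed gene differ together here, and these controls are the ones used in the knockout contrasts. Sex differs too, since both day 20 controls read as female and the day 10 controls as 1 male and 1 female. With sex as a covariate, 12 carriers were called higher at day 20 (3.74% of all genes higher, 4.72% lower). Slc7a12 rose most, 524% of the day 10 mean (log2 difference 2.28 ± 0.24, adjusted p = 0.00121), with both day 20 values far above both day 10 values; with sex as a covariate it was 2.34 ± 0.29. Slc22a4 rose by 1.65 ± 0.18 (adjusted p = 0.00124) and Slc9a3 by 1.63 ± 0.24 (adjusted p = 0.00435). These 3 were called whichever library was left out. Slc26a1 (0.92 ± 0.16, adjusted p = 0.00874), Slc15a2 (1.33 ± 0.27, adjusted p = 0.0142) and Slc27a2 (1.68 ± 0.35, adjusted p = 0.016) rose as well, as did Slc34a3, Slc1a1, Slc6a18, Slc6a19, Slc16a4, Slc17a1, Slc17a3 and Slc5a1 (the last at adjusted p = 0.04996). Those 11 calls each ended without any 1 of the 4 controls (0.0544 to 0.259), and the count of 14 became 3, 3, 4 and 3 without Pkd1 control 1, Pkd1 control 2, Pkd2 control 1 and Pkd2 control 2 and 23 without either Pkd2 knockout. The share of all genes called higher moved the same way in these settings. Slc34a1 and Slc5a2, at 166% of the day 10 mean each, had non-overlapping groups and were not called (adjusted p = 0.127 and 0.148). Slc7a8 and Slc13a1 stood at 93.5% and 80.3% of the day 10 mean (adjusted p = 0.839 and 0.443). The mean of the Pkd2 knockouts lay below that of the younger controls for 19 of the 34 and above it for the rest. The share of all genes was not counted, and age, floxed gene and Cre differ in that comparison.

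Of 17 partners and regulators of the carriers, 7 fell in Pkd1 and 11 in Pkd2, and none rose. The other 10 and 6 were not called, and the medians were -0.52 and -0.90. Among all tested genes, 5.48% were called lower and 5.11% higher in Pkd1, and 8.13% lower and 9.54% higher in Pkd2. The parathyroid hormone receptor Pth1r, through which Slc34a1 and Slc34a3 are withdrawn from the membrane, fell by 2.11 ± 0.26 in Pkd1 (adjusted p = 0.0028) and by 0.90 ± 0.26 in Pkd2 (adjusted p = 0.043). Kl, the co-receptor for the phosphate hormone FGF23, fell by 1.71 ± 0.25 and by 1.60 ± 0.25 (adjusted p = 0.0051 and 0.0045). Slc9a3r1 (NHERF1), which anchors Slc34a1 and Slc9a3, fell by 1.24 ± 0.20 and by 0.91 ± 0.20 (adjusted p = 0.0066 and 0.0158), and the membrane carbonic anhydrase Car4 fell by 1.58 ± 0.24 and by 0.96 ± 0.24 (adjusted p = 0.0059 and 0.0265). The transcription factor Hnf4a fell by 1.252 ± 0.27 and by 1.09 ± 0.27 (adjusted p = 0.0228 and 0.0258).

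Carriers of the same substrates outside the list did not all move one way. Of 34 others, 30 passed the filter, and 10 fell and 4 rose in Pkd1 while 11 fell and 2 rose in Pkd2. The shares of all tested genes were 5.48% lower and 5.11% higher in Pkd1, and 8.13% lower and 9.54% higher in Pkd2. Slc6a20b, a proline carrier of the proximal tubule, fell by 2.16 ± 0.29 in Pkd1 (adjusted p = 0.0039) and Slc16a9, a carrier of the monocarboxylate family, by 1.197 ± 0.20 (adjusted p = 0.0082). The exchanger light chains Slc7a5 (LAT1) and Slc7a6, found in many growing cells, rose by 1.55 ± 0.21 and 1.41 ± 0.20 in Pkd1 (adjusted p = 0.0042 and 0.0045) and by 0.75 ± 0.21 and 0.66 ± 0.20 in Pkd2 (adjusted p = 0.0419 and 0.0497).

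Of 18 markers of the proximal tubule that are not carriers, 11 fell in Pkd1, with Cubn, Ass1, Anpep and Gatm at the smallest adjusted p, 7 fell in Pkd2 and none rose, and their sum stood at 35.1% and 42.0% of control, against 41.4% and 51.1% for the carriers. For this and the next lists, 5.48% of all tested genes were called lower and 5.11% higher in Pkd1. In Pkd2 the shares were 8.13% lower and 9.54% higher. Thick ascending limb markers fell for 5 of 7 in each model, and their sum stood at 41.3% of control in Pkd1 and 22.5% in Pkd2. Of 8 macrophage markers, 8 rose in each, with a summed level of 39.8 to 45.6 in day 10 controls, 126 to 128 in Pkd1 knockouts, 45.8 to 47.1 in day 20 controls and 200 to 233 in Pkd2 knockouts, none of them at 0. Of 6 injured tubule markers, 3 rose in Pkd1 and 5 in Pkd2, and their sum ranged over 68.8 to 70.2, 277.8 to 324.3, 41.7 to 45.1 and 297.6 to 599.4 in the same order of groups, with Havcr1 at 0 in Pkd2 control replicate 2. Matrix markers rose for 2 and 4 of 5, with sums of 747 to 1101, 1935 to 2258, 389 to 469 and 1114 to 1276. Principal cell markers rose for 3 and 4 of 9, with sums of 125 to 161, 251 to 445, 186 to 223 and 245 to 303. Fat and liver genes (Ucp1, Adipoq and Alb) summed to 36.5 and 41.8 in day 20 controls and 4.15 and 0.116 in Pkd2 knockouts, with Alb and Ucp1 at 0 in knockout replicate 2. The part of these shifts in the carriers' fall was not tested.

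In mIMCD-3 cells, 4 of the 34 carriers were in the deposited table, which holds 2016 genes that the authors called (largest adjusted p 0.04998), so their values are a description with no test here. The Hoxb3os group has 3 libraries with 10 nM of the gapmer and the control group 2, all treated for 48 hours. Values are read counts scaled per library. Slc2a2 stood at 100 and 82.2 with the control gapmer and at 156, 177 and 138 with the Hoxb3os gapmer, 1.72 times the control mean. Aqp1 stood at 612 and 779 against 507, 553 and 475 (0.735 times), and Slc4a4 at 306 and 359 against 265, 218 and 220 (0.704 times). Slc15a2 stood at 1343 and 1465 against 1204, 1160 and 1135 (0.831 times). None of the 4 had overlapping groups, as for 99.9% of the genes in that table, and Slc2a2 alone was higher, as were 44.4% of its genes. The authors' deposited table gives moderated log2 fold changes of 0.36 for Slc2a2, -0.34 for Aqp1, -0.32 for Slc4a4 and -0.24 for Slc15a2. The other 30 carriers have no row in that table.

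**Figure D4:**
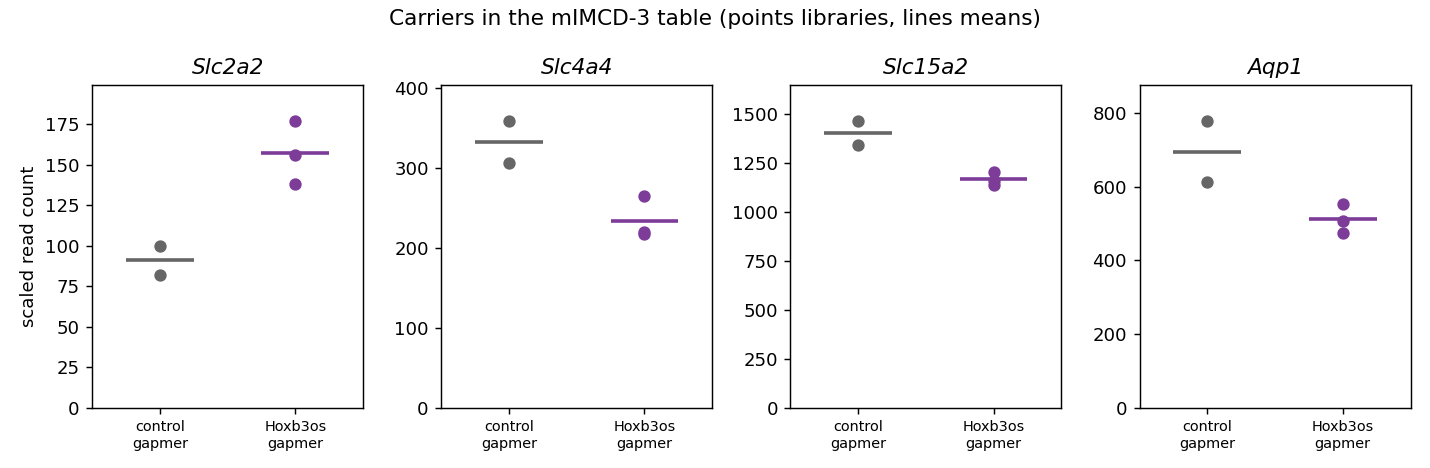
Scaled read counts (y axis, from 0) of the 4 carriers in the mIMCD-3 table, in control gapmer (grey, 2 libraries) and Hoxb3os gapmer cells (purple, 3 libraries), with lines at the group means. Slc2a2 is higher with the Hoxb3os gapmer (1.72 times) and Aqp1, Slc4a4 and Slc15a2 are lower (0.735, 0.704 and 0.831 times).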

How the data were processed

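RNA was extracted with Trizol and libraries made with TruSeq, per the labels' protocols, for 8 kidney and 5 mIMCD-3 libraries. The submitters' processing notes name RSEM 1.2.22, edgeR, Cufflinks 2.2.1 and STAR 2.4.2a for kidneys and STAR 2.4.2a, Trimmomatic 0.32, SAMtools 1.0 and DESeq2 1.12.3 for cells, on mm10. The sources used here do not give the tools' roles, the annotation or the strand setting. The kidney signal deposited by the authors is CPM over a library's own scaling factor, as read from the values. Dividing by the value of 1 read gave whole reads, within 0.02 of a read, for 92.9% to 95.0% of the values above 0 of a library. The cell signal deposited by the authors is read counts scaled per library. Log2 fold changes and adjusted p-values deposited by the authors are quoted as theirs, with the kidney log2 being control minus knockout. Likelihood ratio scores deposited by the authors, per the file headers, were not used.

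Kidney genes that reached 1 in 2 or more libraries were fitted with limma 3.58.1 (trend, R 4.3.3) on log2(value + 1) in 1 model of 4 groups, residual degrees of freedom of 4 (prior 4.77), and Benjamini-Hochberg adjustment over 14637 genes. The fit was also run on simulated data with known changes, as a check of the script. Alternatives were a pseudocount of 0.1, no filter, quantile scaling, scaling without mitochondrial genes or small structural RNAs, a fit per contrast, a replicate block, a sex covariate, each library left out, and edgeR 4.0.16 and DESeq2 1.42.0 on recovered reads. Levels per kilobase used exon lengths from the GENCODE annotation given with mm10, over all exons of a gene.

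Members and lists were chosen with earlier results of these data known. Genes given with the value in every library were the 6 with the smallest adjusted p among those called in each contrast, those that moved against the majority, and the pairs Slc34a1 and Slc34a3, Slc5a1 and Slc5a2, and Slc7a12 and Slc7a13, and Slc2a2, Slc5a10, Slc13a2, Slc27a2, Slc17a1 and Pdzk1 were added after their values were seen. From the lists of regulators and partners, of other carriers and of proximal tubule genes that are not carriers, the 4 called genes with the smallest adjusted p in Pkd1 are named, with Hnf4a added, and marker lists are given by counts and sums, a departure from the rule, which named genes from them too. Aqp2 and Scnn1a were added after their values were seen. From the list of regulators and partners, 1 gene is not reported here. Proteins were not analysed here.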

Additional observations from a re-analysis of the deposited data

How the results depend on the processing

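Of the 2448 values of single carriers under alternatives, 2086 kept their side of the threshold, 137 became called and 225 lost the call. No called change reversed, but some changes that were not called turned sign, such as Slc5a10 in Pkd1 (-1.84 to 0.346). The Pkd1 count of 18 was 7 with no filter on low values and ran from 5 to 24 with 1 library left out. The Pkd2 count of 17 was 8 with no filter and 9 with only the libraries of that contrast, and ran from 4 to 25 with 1 library left out. The age count of 14 was 5 with no filter, 29 with only the libraries of that contrast and 22 with DESeq2, and ran from 3 to 23 with 1 library left out. DESeq2 called 3 carriers for the difference between models, where limma and edgeR called 0 and 6 had an unadjusted p below 0.05. Settings limited to 1 contrast or without a library hold fewer libraries by construction, and with no filter 26812 genes were tested in place of 14637. The share of all genes called moved as well. With no filter, 1.47% were lower in Pkd1, 2.84% lower and 3.92% higher in Pkd2, and 2.03% higher at day 20. With only the libraries of the contrast, 3.67% were lower in Pkd2 and 10.7% higher at day 20. DESeq2 called 7.13% higher at day 20. Leaving out 1 library also moved these shares. The cause of the shifts with DESeq2 and with no filter was not tested. The Pkd2 median of -1.01 was -1.43 when mitochondrial genes and small structural RNAs were left out of the scaling, a setting that moved the median of all genes by -0.37, and ran from -1.35 to -0.64 with 1 library left out. The median difference between models, -0.26, turned to 0.04 without Pkd1 knockout replicate 1 and to 0.14 without Pkd2 knockout replicate 1, and ran from -0.69 to 0.14 over the left-out libraries.

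With sex as a covariate, the counts were 20 in Pkd1, 19 in Pkd2, 0 for the difference and 12 for age. Of all genes, 6.93% were lower in Pkd1 in that setting, and 9.93% lower and 10.4% higher in Pkd2. With a replicate block, the counts were 15 in Pkd1, 17 in Pkd2, 0 for the difference and 12 for age. Of all genes, 4.27% were then lower in Pkd1, 6.66% lower and 8.37% higher in Pkd2, and 4.14% higher at day 20. Same-numbered libraries of a model deviated from their group means with correlations of -0.38 (Pkd1) and -0.049 (Pkd2), so the numbers are not shown to pair the samples. Crossed numbers in Pkd1, tried after seeing the data, gave 16 (4.49% of all genes lower). With 2 libraries a group and a lone library assumed to vary like the others when 1 was left out, small changes could not be called, and a change that missed the threshold is not shown to be absent.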
